A study of Mus musculus with 61 samples.

Results

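The unstimulated spleens of mice carrying the Stat5b Y665H mutation were compared with those of WT mice. These were 9 of the 61 RNA-seq libraries of the series, chosen as the libraries whose tissue label is Spleen and whose cells were not cultured, with 5 from Y665H and 4 from WT mice. All mice were of the C57BL/6 strain and 2 months old, and the methods name males. Neither group was stimulated before RNA was taken. The Y665H allele was made in C57BL/6N zygotes with an adenine base editor, so it is a germ-line change that is not limited to a cell type. The labels do not say whether the mice were heterozygous or homozygous, or how many founders they came from. The titles call the material splenocytes and the tissue label says spleen. The methods name frozen spleen tissue and isolated T cells as sources of RNA. The paper's results describe its unstimulated RNA-seq as made from freshly isolated T cells, and also speak of splenocytes. Following the labels, each library was treated as a mixture of all spleen cells. A further 7 libraries of Stat5b Y665F spleens shared the estimate of the spread, and their values are given only as ranges beside some genes and lists.

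STAT5B is a transcription factor that is switched on by cytokine receptors. Ligands such as interleukin 2, interleukin 7, interleukin 15, erythropoietin and growth hormone activate Janus kinases, which phosphorylate STAT5 proteins. Phosphorylated STAT5 proteins pair through their SH2 domains and bind DNA. The tyrosine that the mutation replaces with histidine lies in the SH2 domain. In lymphoid tissue STAT5 is known for its role in the survival of NK cells, CD8+ T cells and regulatory T cells, and in the red cell lineage it acts downstream of the erythropoietin receptor. The white pulp of the spleen holds B and T lymphocytes, and the red pulp holds macrophages, NK cells and, in mice, red cell precursors and other blood-forming cells.

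The edited base is shown first, since it defines the mutant group. The guide is taken from the study's list of designed guides, with the edited adenine and the PAM in capitals, and the coding window is the reference sequence around the edited codon, with that codon in capitals.
Y665H guide: tgaggtAattcaggtcccccAGG
Stat5b codon window: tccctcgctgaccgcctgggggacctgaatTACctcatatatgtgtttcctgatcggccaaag
The guide matched chr11:100787287-100787309 of mm10 on the plus strand, and the window is chr11:100787261-100787323 on the minus strand, from which Stat5b is transcribed. The edited codon lies in exon 16 of 19 of the transcript ENSMUST00000107358.8. The change is A7G in the guide, counted from its 5′ end, and T1993C in the coding sequence, counted from the A of the start codon, and turns TAC into CAC. The deposited gene counts hold no bases, so the allele itself was not checked in the libraries.

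Between 26729520 and 33739673 reads per library were counted on genes in WT and between 31020012 and 43330536 in Y665H spleens. Libraries and processing differed along the genotype in 2 ways before any gene was compared. Levels are given as CPM, the reads of a gene per 1000000 reads on genes after scaling between libraries. The deposited tables list 95747 to 129258 unaligned reads in each Y665H library and 0 in each WT library, so the files of the 2 groups were not made in an identical way. The ribosomal precursor RNA Rn45s was at 2696, 3253, 5529 and 5953 CPM in WT replicates 1 to 4 and at 51780, 23800, 11580, 11380 and 16800 CPM in Y665H replicates 1 to 5, with no overlap. Y665F spleens were at 9797 to 26920 CPM, also above WT. Whether the handling of the libraries contributed to a gene's difference cannot be told apart from the genotype. Y665H replicate 1 stood apart from the other 4 Y665H libraries in most of the genes that rose, as described for each group of genes. Genes of fat summed to 463 CPM in Y665H replicate 5 against 23.7 to 111 CPM in the other Y665H libraries and 7.02 to 75.6 CPM in WT, and genes of pancreas to 80.9 CPM in Y665H replicate 2 against 6.70 to 22.2 CPM in the other 8 libraries. B cell, T cell and red pulp macrophage markers were detected in all 9 libraries, and stromal genes of the spleen such as Cxcl13 were too, so that the spleen label was not contradicted. The Stat5b transcript, on chromosome 11 of mm10 from 100780731 to 100850724, was at 86.1, 97.4, 108 and 114 CPM in WT and at 122, 98.7, 107, 102 and 98.6 CPM in Y665H spleens. The groups overlapped (log2 fold change 0.06 ± 0.09 SE, adjusted p = 0.669 by edgeR's quasi-likelihood test), and the amount of transcript does not check the label of a point mutation.

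Many more genes were higher than lower in Y665H spleens where a gene had to differ by more than 1 on the log2 scale and have an adjusted p under 0.05. Of 19418 genes tested, 763 were called higher (3.93%) and 85 lower (0.438%). The adjusted p-values given for single genes are those of the edgeR fit, corrected by Benjamini and Hochberg's method across every gene tested. Without the fold-change minimum, the calls were 2079 higher (10.7%) and 1758 lower (9.05%), so the falls were about as common as the rises but smaller. The 5 Y665H libraries all lay above the 4 WT libraries for 819 genes (4.22%) and all below for 1245 genes (6.41%). These shares over all genes are the background for the counts of list members given below. The median log2 fold change over all genes tested was 0.00. Leaving out Y665H replicate 1 gave 1000 genes called higher (5.17% of 19345) and 95 called lower (0.491%), and 755 of the 763 higher and 65 of the 85 lower genes were called again. Without WT replicate 1, 50 genes were called lower.

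The called rises and the called falls differed in how far Y665H replicate 1 took part. Among the 763 genes called higher, Y665H replicate 1 lay within the WT range for 517, above it for 207 and below it for 39, while replicates 2 to 5 all lay above every WT library for 721. Among the 85 genes called lower, Y665H replicate 1 lay below every WT library for 68 and within the WT range for 17. Among called genes, the falls were therefore mostly shared by 5 of 5 Y665H libraries and the rises by 4 of 5. Both sets were called with replicate 1 in the group, so its part in the called falls is in part set by the calling. In lists with smaller falls, replicate 1 lay in or above the WT range for 12 of 15 T cell identity, 14 of 16 B cell and 12 of 13 regulatory T cell genes. Over all genes tested this held for 14500 of 19418, so the T cell identity count is near that share.

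**Figure D1:**
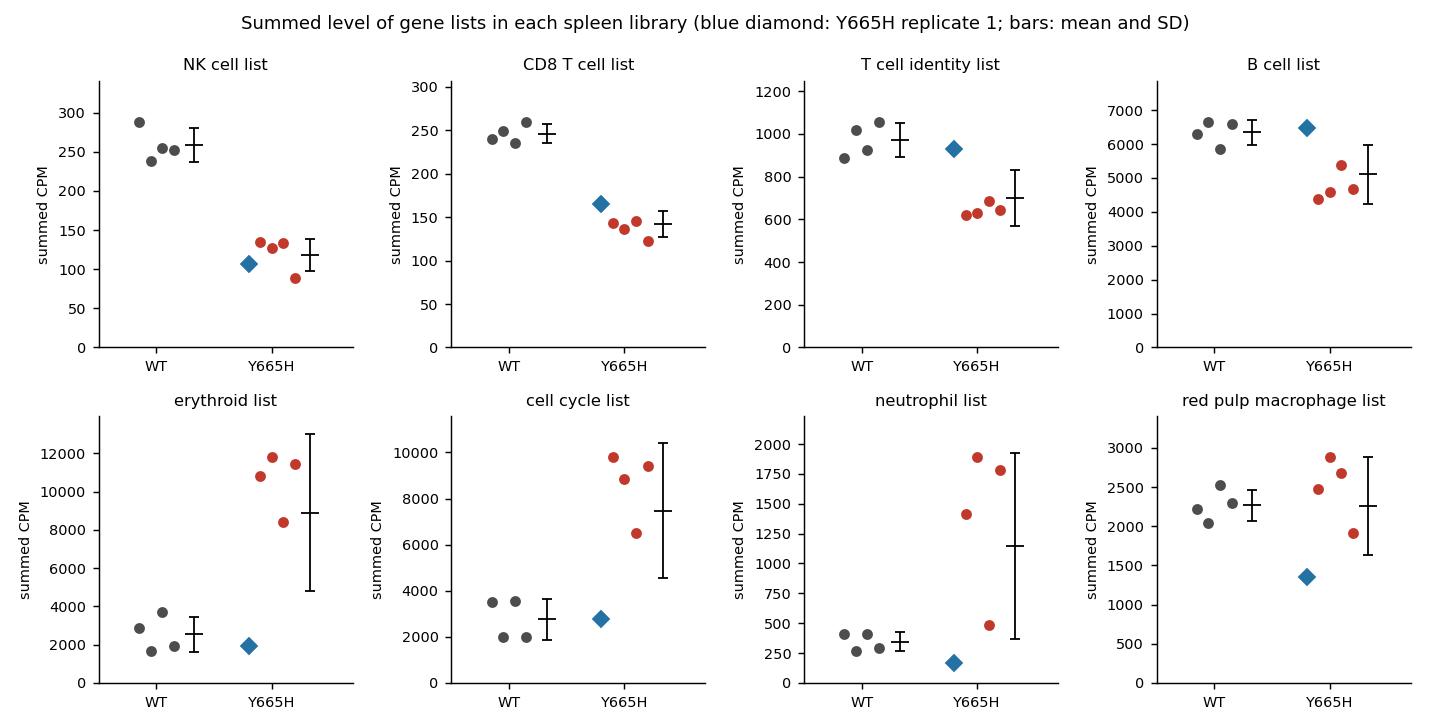
Summed level of marker gene lists in each spleen library, in CPM, with WT and Y665H libraries as points, Y665H replicate 1 as a diamond, and the mean and SD of each group as bars. NK cell and CD8 T cell sums lie lower in all 5 Y665H libraries than in any WT library, whereas erythroid, neutrophil and cell cycle sums are high in Y665H replicates 2 to 5 and within or below the WT range in replicate 1.

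The NK cell genes were lower in Y665H spleens, and this list held the most genes called lower of the 27 lists examined. Of 13 genes listed, 12 were tested and 8 were called lower and 0 higher, with 11 below the adjusted p threshold regardless of fold change. Of the 12, 10 were lower in every Y665H library than in any WT library. Their median log2 fold change was −1.16, and −1.11 without Y665H replicate 1. Summed over the list, WT replicates 1 to 4 were at 288, 238, 255 and 253 CPM and Y665H replicates 1 to 5 at 107, 134, 127, 134 and 88.9 CPM. Every Y665H library, replicate 1 included, lay below every WT library. Y665F spleens summed to 133 to 286 CPM, from the Y665H range up into the WT range. A sum below WT was therefore not particular to Y665H. In whole spleen, fewer NK cells and less of these RNAs per NK cell cannot be told apart, and this holds for every cell type described here.

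Klrd1, which encodes CD94, the partner of NKG2 receptors, was at 44.5, 46.2, 37.1 and 43.2 CPM in WT and at 22.5, 18.1, 19.2, 21.8 and 17.2 CPM in Y665H spleens. It was 2.16-fold lower, without overlap between the groups (log2 fold change −1.11 ± 0.12 SE, adjusted p = 0.000322). Klrk1, which encodes the activating receptor NKG2D, was at 77.6, 67.0, 66.1 and 66.0 CPM in WT and 30.8, 38.5, 35.1, 40.0 and 24.2 CPM in Y665H spleens. Ncr1, which encodes the NK cell receptor NKp46, was at 30.04, 20.5, 28.4 and 24.7 CPM in WT and 11.4, 13.0, 14.0, 13.5 and 8.56 CPM in Y665H spleens. Klrk1 and Ncr1 fell by 1.03 and 1.10 on the log2 scale (SE 0.17 and 0.26, adjusted p = 0.00138 and 0.00743), again without overlap. Without Y665H replicate 1 the log2 fold change of Klrk1 was −0.97, short of the minimum.

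Gzma, which encodes the cytotoxic protease granzyme A and also stands in the effector list, was at 37.8, 24.99, 33.2 and 29.9 CPM in WT. In Y665H spleens it was at 5.20, 13.9, 13.0, 12.3 and 5.82 CPM, with replicates 1 and 5 lowest. It was 3.12-fold lower (log2 fold change −1.64 ± 0.36 SE, adjusted p = 0.00485). The Klra genes encode Ly49 receptors of NK cells and are near-identical copies, so reads may be split or lost among them. Klra9 was at 6.32 to 7.30 CPM in WT and 0.97 to 2.40 CPM in Y665H spleens (log2 fold change −1.99 ± 0.41 SE, adjusted p = 0.00363). Klrb1c, Klre1 and Klra7 were called as well and fell by 1.35, 1.28 and 1.20 on the log2 scale. Perforin (Prf1) was lower by less, with a log2 fold change of −0.51 (adjusted p = 0.0307), and every Y665H library lay below every WT library.

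The CD8 T cell genes were also lower, by less than the NK genes. None of the 8 listed genes passed the fold-change minimum, but 6 passed the adjusted p in the lower direction and none in the higher, and 7 did not overlap between the groups. Their median log2 fold change was −0.65 with and without Y665H replicate 1. The list summed to 240, 249, 235 and 260 CPM in WT and to 165, 143, 136, 145 and 123 CPM in Y665H replicates 1 to 5. Cd8a, a chain of the CD8 coreceptor, was at 116, 125.6, 111 and 125 CPM in WT and 72.2, 65.5, 64.2, 69.3 and 51.3 CPM in Y665H spleens. It was 1.85-fold lower without overlap (log2 fold change −0.89 ± 0.10 SE, adjusted p = 0.000392). Cd8b1, the other chain, was at 52.5, 54.1, 51.5 and 59.8 CPM in WT and 35.3, 26.0, 23.6, 26.2 and 25.1 CPM in Y665H spleens, where replicate 1 was highest. Its log2 fold change of −1 ± 0.13 SE (adjusted p = 0.000654) lay just inside the minimum, so that it was not called, whereas it was −1.03 without WT replicate 3 and −1.08 without Y665H replicate 1 and passed.

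Genes of T cells in general and of CD4 T cells were lower in Y665H replicates 2 to 5 but less so in replicate 1. The 15 T cell identity genes, among them Cd3e, summed to 887 to 1057 CPM in WT, to 931 CPM in Y665H replicate 1 and to 619 to 685 CPM in replicates 2 to 5. All 15 had a negative log2 fold change, 8 passed the adjusted p and none was called, with a median of −0.47. Cd3e, a chain of the T cell receptor complex, was at 40.3, 55.3, 41.3 and 44.7 CPM in WT and 40.1, 24.7, 26.2, 30.04 and 27.8 CPM in Y665H spleens, so that replicate 1 lay just below the lowest WT library. Of the 8 CD4 T cell genes, 4 passed the adjusted p as lower and none was called, with a median of −0.36. Cd4 itself was at 113, 125, 105 and 119 CPM in WT, at 130 CPM in Y665H replicate 1 and at 86.3, 80.0, 93.3 and 86.2 CPM in replicates 2 to 5. Replicate 1 was thus above and the others below every WT library, and Cd4 did not pass (log2 fold change −0.28 ± 0.13 SE, adjusted p = 0.139).

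**Figure D2:**
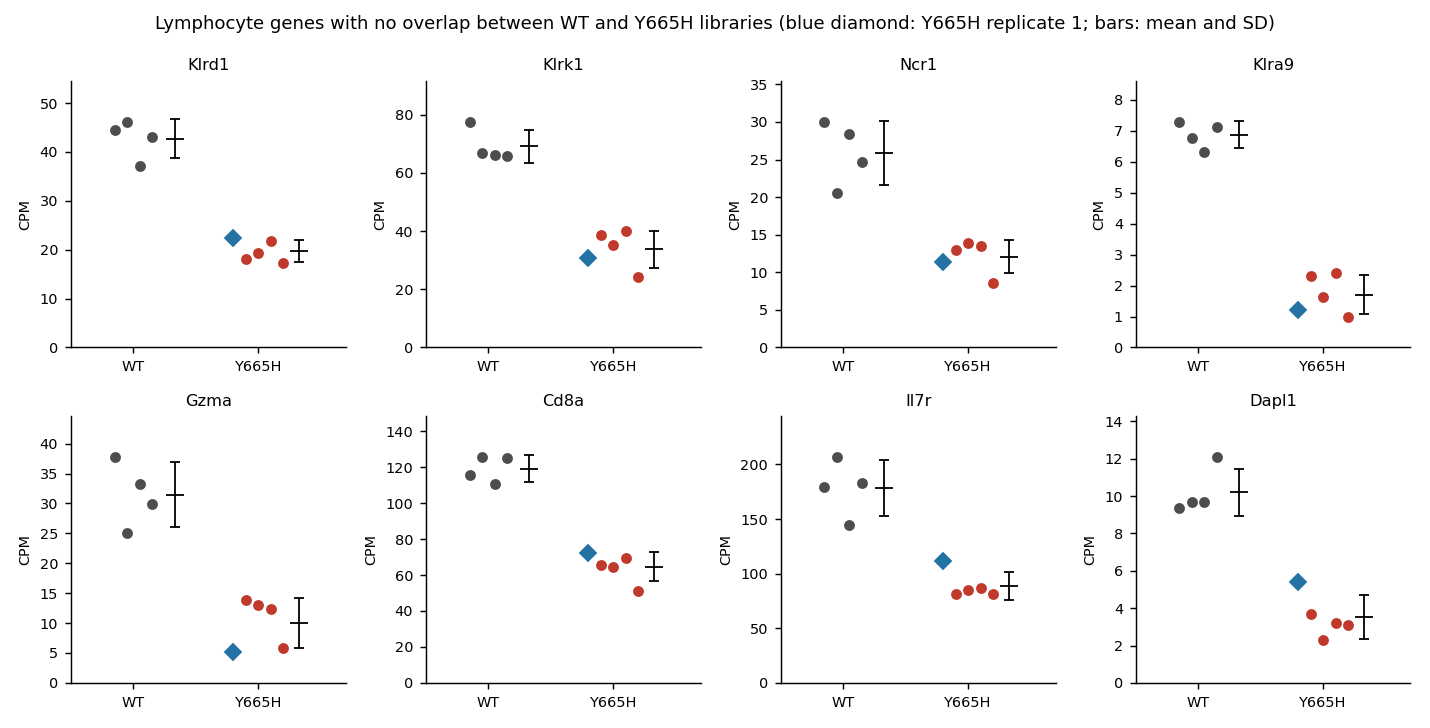
Level of lymphocyte genes in each spleen library, in CPM, with Y665H replicate 1 as a diamond and the mean and SD of each group as bars. The NK genes and Cd8a are separated between WT and Y665H in all libraries.

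Genes of naive and of effector T cells both fell. Of 12 naive T cell genes, 2 were called lower, 7 passed the adjusted p and the median was −0.52. Dapl1 was at 9.37, 9.69, 9.70 and 12.1 CPM in WT and at 5.39, 3.68, 2.28, 3.19 and 3.08 CPM in Y665H spleens, 2.90-fold lower without overlap (log2 fold change −1.53 ± 0.18 SE, adjusted p = 0.000392). Of 18 effector and memory genes, 3 were called lower (Gzma, Klrg1 and S1pr5), 12 passed the adjusted p and all 18 had a negative log2 fold change, with a median of −0.61. NK cells express many genes of this list, and Gzma and Prf1 stand in both lists. Klrg1, a receptor of differentiated cytotoxic cells, was at 3.15, 2.34, 2.94 and 2.71 CPM in WT and 1.51, 1.12, 0.759, 1.17 and 0.769 CPM in Y665H spleens (log2 fold change −1.38 ± 0.18 SE, adjusted p = 0.000603). All Y665H libraries lay below all WT libraries. S1pr5, an exit receptor of NK and effector cells, had a log2 fold change of −1.01 ± 0.18 SE (adjusted p = 0.00207), which missed the minimum without WT replicate 1 (−0.96), WT replicate 4 (−0.99) or Y665H replicate 1 (−0.95).

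Of 13 regulatory T cell genes, 3 passed the adjusted p as lower (9.05% of all genes tested did) and none was called, with a median of −0.25. Foxp3, the transcription factor that defines these cells, ranged from 6.67 to 8.89 CPM in WT, was at 11.2 CPM in Y665H replicate 1 and ranged from 6.21 to 7.79 CPM in replicates 2 to 5. Its log2 fold change of −0.12 ± 0.16 SE did not pass (adjusted p = 0.662). Il2ra, the high-affinity chain of the interleukin 2 receptor, was at 17.3, 23.5, 16.3 and 19.2 CPM in WT. In Y665H spleens it was at 17.3 CPM in replicate 1 and at 7.83, 8.35, 13.4 and 8.66 CPM in replicates 2 to 5, which all lay below WT. Il2ra was lower by 0.78 on the log2 scale (SE 0.19, adjusted p = 0.00883).

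B cell genes fell little. Of 16 genes, 8 passed the adjusted p as lower, none was called and the median log2 fold change was −0.28. The list summed to 5841 to 6660 CPM in WT, to 6486 CPM in Y665H replicate 1 and to 4392 to 5378 CPM in replicates 2 to 5. Y665F spleens summed to 4501 to 5724 CPM, also below WT. Ms4a1, which encodes CD20, was at 851, 863, 695 and 798 CPM in WT and 676, 517, 554, 661 and 545 CPM in Y665H spleens (log2 fold change −0.44 ± 0.09 SE, adjusted p = 0.00368). The Y665H libraries all lay below the WT libraries. In contrast, genes of plasma cells and germinal centres were higher in 11 of 14 cases, of which 7 passed the adjusted p, with a median of 0.52. Jchain, which links IgM and IgA chains into polymers, was at 1044, 780, 958 and 855 CPM in WT and 1099, 2022, 1929, 1674 and 1125 CPM in Y665H spleens. It rose 1.73-fold without overlap (adjusted p = 0.00561), and replicates 1 and 5 were close to WT. Tnfrsf17, which encodes the plasma cell receptor BCMA, was the called member, with 1.12 to 2.11 CPM in WT and 2.67 to 4.42 CPM in Y665H spleens (log2 fold change 1.06 ± 0.25 SE, adjusted p = 0.00627), a call lost without WT replicate 2 (0.96) or Y665H replicate 2 (0.93).

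Of 11 dendritic cell genes, 6 passed the adjusted p as lower and were below WT in all Y665H libraries, with a median of −0.36 over the list. They were genes of conventional and plasmacytoid dendritic cells, among them Xcr1 and Clec9a of cross-presenting cells and Siglech and Ccr9 of plasmacytoid cells. The list was not uniform. Flt3, Zbtb46, Batf3, Clec10a and Sirpa overlapped between the groups, and 3 of the 11 genes had a positive log2 fold change. Itgax, which encodes CD11c, was at 159 to 174 CPM in WT and 102 to 152 CPM in Y665H spleens (log2 fold change −0.36 ± 0.09 SE, adjusted p = 0.0074). Clec9a was at 97.0, 96.7, 85.4 and 90.04 CPM in WT and 64.1, 58.8, 63.9, 68.2 and 54.4 CPM in Y665H spleens, 1.49-fold lower without overlap (adjusted p = 0.000962). Every Y665F library also lay below every WT library in Clec9a and Xcr1. Monocyte and red pulp macrophage lists held no called gene, with medians near 0 and of 0.11. The red pulp macrophage genes summed to 2048 to 2521 CPM in WT, to 1350 CPM in Y665H replicate 1 and to 1918 to 2884 CPM in replicates 2 to 5. Vcam1, which macrophages and stroma of the spleen express, was at 324 CPM in Y665H replicate 1 against 587 to 639 CPM in WT. Y665H replicate 5 also lay below every WT library in Vcam1.

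**Figure D3:**
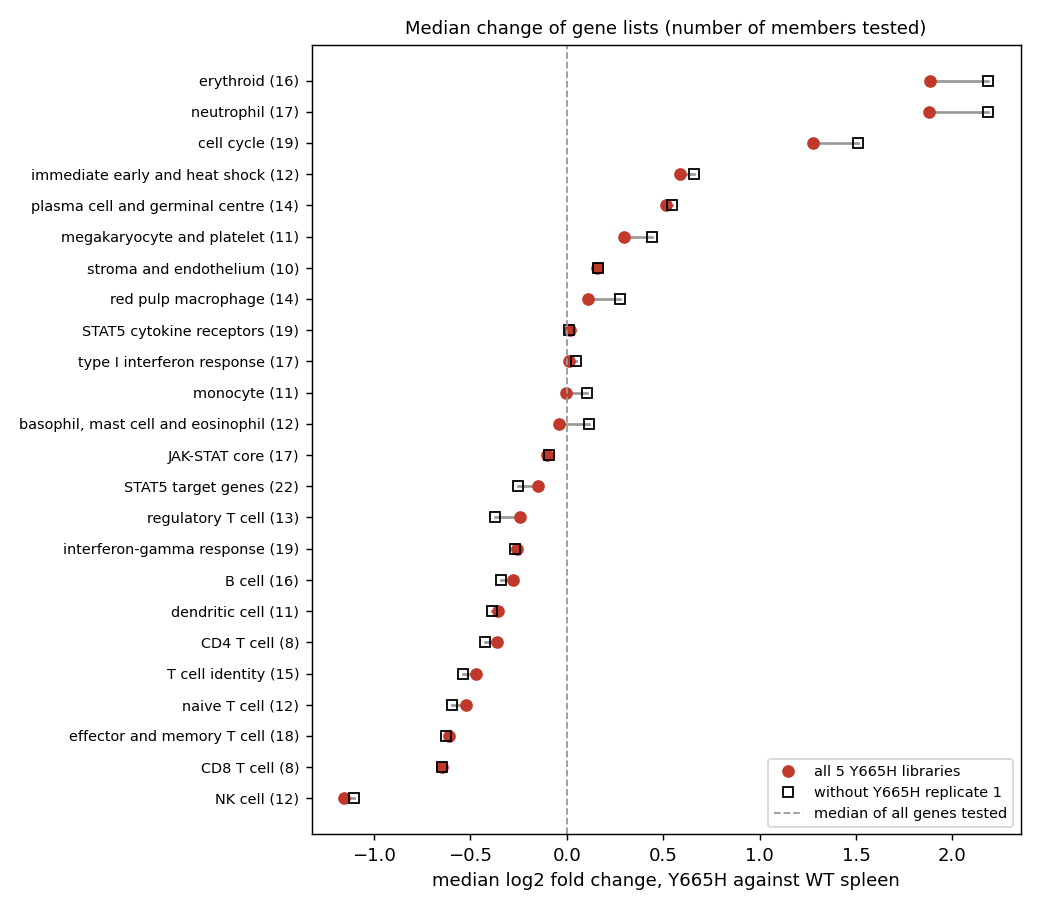
Median log2 fold change of Y665H against WT over the tested genes of each plotted list, with all 5 Y665H libraries and without replicate 1. The fat and pancreas lists, with medians of 2.14 and 3.71, and the sex-linked list are not plotted. The plotted lists range from the NK cell list at −1.16 to the erythroid and neutrophil lists at 1.88, and leaving out replicate 1 moves the rising lists further up.

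Among the receptors that signal through STAT5, 1 of 19 was called lower and 1 higher, with 6 and 3 past the adjusted p regardless of fold change and a median of 0.02. For all genes tested, 9.05% passed as lower and 10.7% as higher. Il7r, the interleukin 7 receptor chain that naive T cells depend on, was at 179, 207, 144 and 183 CPM in WT and 112, 81.3, 85.2, 86.6 and 81.0 CPM in Y665H spleens. Replicate 1 was the highest of the Y665H libraries and still below every WT library. Il7r was lower by 1 on the log2 scale (SE 0.12, adjusted p = 0.000392), which is on the fold-change minimum, and it fell just short of the minimum in 14 of the alternatives tried, with −0.89 without WT replicate 2 as the smallest change with a library left out. The Il2rb and Il2rg chains shared with interleukin 2 and interleukin 15 were lower by 0.48 and 0.51 on the log2 scale (adjusted p = 0.0195 and 0.00279). Il5ra and Csf2rb2, receptor chains for interleukin 5 and interleukin 3, were lower by 0.67 and 0.32 (adjusted p = 0.02 and 0.0319). Il4ra, Il15ra, Il21r, Crlf2, Il3ra, Csf2ra, Csf2rb, Ghr and Prlr were among those that did not pass the adjusted p. Y665F spleens had Il7r between 173 and 245 CPM and Il2ra between 28.9 and 39.6 CPM. The Y665F libraries are set against the same WT libraries.

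Of the receptors of blood-forming cells, Epor, the erythropoietin receptor, was the one called higher. It was at 2.82, 3.53, 11.7 and 4.75 CPM in WT and at 8.85 CPM in Y665H replicate 1, within the WT range, and 28.4, 35.6, 22.3 and 32.2 CPM in replicates 2 to 5, above it. It rose 4.43-fold (log2 fold change 2.15 ± 0.45 SE, adjusted p = 0.00366). Csf3r, the receptor for granulocyte colony-stimulating factor, was at 28.1 to 40.6 CPM in WT, at 34.7 CPM in Y665H replicate 1 and at 59.8 to 75.9 CPM in replicates 2 to 5 (log2 fold change 0.81 ± 0.18 SE, adjusted p = 0.00536). Il9r, the interleukin 9 receptor, was at 35.8, 27.0, 45.8 and 34.9 CPM in WT and 55.5, 57.3, 53.0, 46.7 and 59.8 CPM in Y665H spleens, replicate 1 included, without overlap. It was 1.52-fold higher (adjusted p = 0.0053), and Y665F spleens were at 15.4 to 23.9 CPM, below WT.

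The STAT and Janus kinase genes changed little. Of 17 genes in this list, none was called, and 4 passed the adjusted p as lower and 1 as higher (9.05% and 10.7% of all genes tested did), with a median of −0.11. Among the lower genes were Stat4, Jak1 and Ptpn2, which were below WT in all Y665H libraries, and the higher one was Ptpn11, which encodes the phosphatase SHP2. Stat4, which transmits interleukin 12 signals in NK and T cells, was at 121, 125, 93.2 and 111 CPM in WT and 83.7, 74.9, 63.3, 76.0 and 79.4 CPM in Y665H spleens (log2 fold change −0.58 ± 0.09 SE, adjusted p = 0.00148). Stat5a, the close relative of Stat5b, was at 36.0, 37.5, 45.6 and 41.8 CPM in WT and 46.1, 38.6, 40.6, 40.4 and 41.2 CPM in Y665H spleens, which overlapped (log2 fold change 0.04 ± 0.08 SE, adjusted p = 0.781). Stat3, Stat6, Jak2, Jak3 and Tyk2 were among the others that did not pass.

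Of 22 genes known as STAT5 targets, 1 was called higher and none lower, 3 passed the adjusted p as higher and 9 as lower, and the median was −0.15. Over all genes tested, 10.7% passed as higher and 9.05% as lower, so the 3 higher genes are near that share. Cish, a feedback inhibitor of cytokine signalling and a widely used readout of STAT5 activity, was at 2.44, 3.17, 4.62 and 4.98 CPM in WT and 5.04, 5.22, 4.24, 4.71 and 4.58 CPM in Y665H spleens. The groups overlapped, and the log2 fold change of 0.32 ± 0.17 SE did not pass (adjusted p = 0.218), while Y665F spleens were at 10.8 to 15.6 CPM. Socs2, another feedback inhibitor, was at 19.3, 20.02, 14.6 and 19.7 CPM in WT and 14.7, 10.8, 12.7, 12.8 and 11.4 CPM in Y665H spleens. It was 1.47-fold lower (log2 fold change −0.56 ± 0.11 SE, adjusted p = 0.00248), with WT replicate 3 at the level of Y665H replicate 1. The survival gene Bcl2 was at 219, 240, 191 and 216 CPM in WT and 205, 152, 136, 161 and 161 CPM in Y665H spleens (log2 fold change −0.41 ± 0.10 SE, adjusted p = 0.0078).

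The receptor genes Il18r1 and Il12rb2, which stand in the target list, were lower in every Y665H library. Il18r1, the interleukin 18 receptor of NK and effector T cells, was at 64.0, 66.3, 50.4 and 56.0 CPM in WT and 40.3, 32.1, 30.8, 31.4 and 28.9 CPM in Y665H spleens, 1.81-fold lower (adjusted p = 0.000526). Il12rb2, a chain of the interleukin 12 receptor, was at 20.4, 20.5, 20.7 and 19.2 CPM in WT and 11.7, 12.6, 12.9, 15.5 and 10.9 CPM in Y665H spleens, 1.59-fold lower (adjusted p = 0.00148). Bcl2l1, Pim1 and Ccnd3 were the members that rose. Bcl2l1, which encodes the survival protein BCL-XL that red cell precursors rely on, was at 35.2, 32.3, 60.7 and 47.4 CPM in WT, at 45.6 CPM in Y665H replicate 1 and at 95.9, 158, 107 and 134 CPM in replicates 2 to 5. It rose 2.46-fold (log2 fold change 1.30 ± 0.26 SE, adjusted p = 0.00329), with replicate 1 within the WT range. Pim1 and Ccnd3, which encode a kinase and a cyclin, rose by 0.68 and 0.91 on the log2 scale (adjusted p = 0.00158 and 0.00347), and Ccnd3 passed the fold minimum without WT replicate 3 or Y665H replicate 1 (1.15 and 1.04). Mcl1, Ccnd2, Id2 and Gzmb were lower by 0.28, 0.27, 0.39 and 0.99 (adjusted p = 0.00747, 0.0124, 0.00721 and 0.017). Gzmb, which encodes granzyme B, passed the minimum without WT replicate 2 or 4 or Y665H replicate 2 or 3. Myc, Pim2, Osm, Lif, Lta, Socs1, Socs3, Foxp3 and Bcl6 did not pass the adjusted p.

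**Figure D4:**
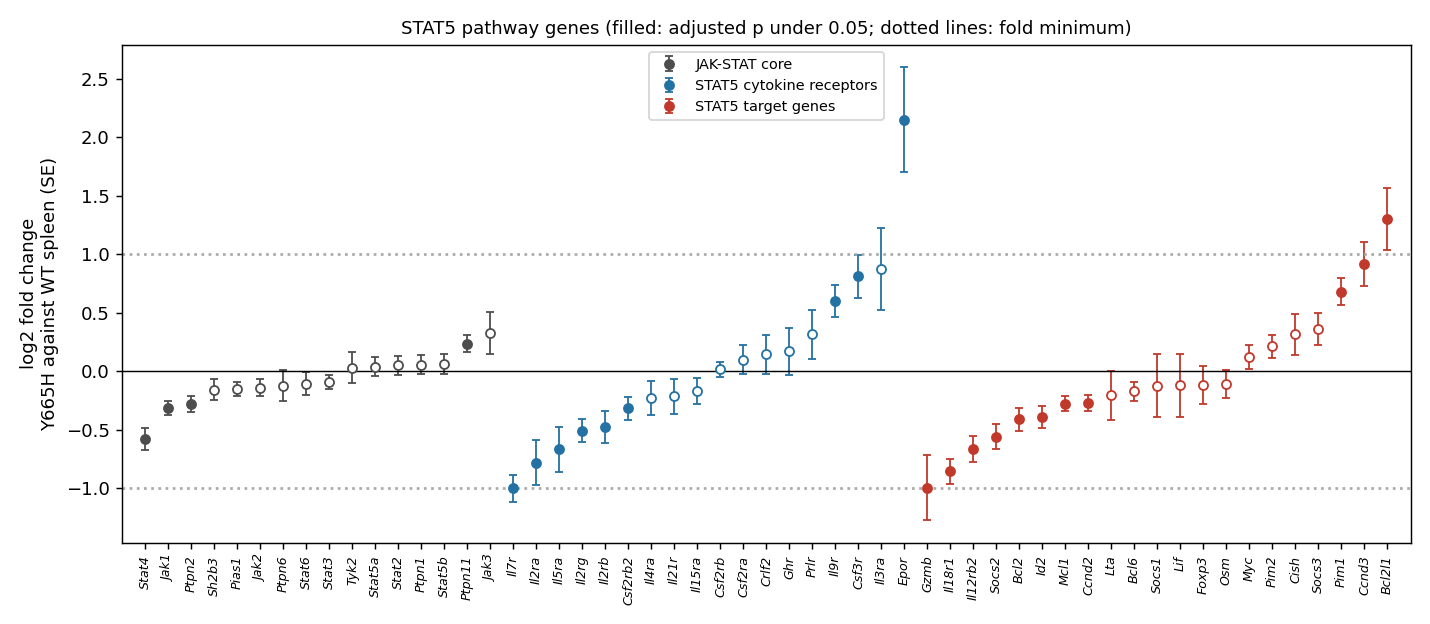
Log2 fold change of Y665H against WT for the STAT and Janus kinase genes, the cytokine receptors and the target genes of STAT5, with bars of 1 SE. Il7r lies lowest among the receptors and Epor highest, and Bcl2l1 is highest among the targets.

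Because whole spleen mixes cell types, the receptors and targets were also expressed relative to the mean of the T cell identity list. The log2 CPM with a pseudocount of 1 minus that mean was compared by an exact two-sided permutation test over all arrangements of the 9 libraries. None of 40 genes had an adjusted p under 0.05, 22 had an unadjusted p under 0.05, and 6 reached 0.00794, the smallest exact p this design allows (adjusted p = 0.0529). These 6 were Il7r and Il18r1, which lay lower relative to the T cell list by 0.58 and 0.42, and Il9r, Crlf2, Il3ra and Socs3, which lay higher by 1.02, 0.52, 0.95 and 0.77. Relative to the T cell list, Il2rb differed by −0.05. Since the T cell list itself was lower in Y665H replicates 2 to 5, these are differences relative to T cell genes and not in the spleen as a whole.

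The promoter of Cish is shown because it holds the letters to which STAT5 proteins bind, TTCNNNGAA, in capitals, and those of Epor and Klf1 because these genes rose and hold GATAAG, the letters bound by GATA factors, on either strand. The Cish window holds GATAAG once as well, left in lower case, and Cish did not pass the adjusted p (0.218). The sequences are RefSeq's, build GRCm38.p6, from 250 bases before to 50 bases after the start, and GATAAG was chosen after the sequences were seen.
Cish promoter: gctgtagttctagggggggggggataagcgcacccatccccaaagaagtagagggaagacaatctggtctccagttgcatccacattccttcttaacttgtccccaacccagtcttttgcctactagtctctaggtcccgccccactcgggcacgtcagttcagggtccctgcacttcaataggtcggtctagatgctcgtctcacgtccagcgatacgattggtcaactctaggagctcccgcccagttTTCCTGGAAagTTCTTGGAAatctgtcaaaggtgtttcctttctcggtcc
Epor promoter: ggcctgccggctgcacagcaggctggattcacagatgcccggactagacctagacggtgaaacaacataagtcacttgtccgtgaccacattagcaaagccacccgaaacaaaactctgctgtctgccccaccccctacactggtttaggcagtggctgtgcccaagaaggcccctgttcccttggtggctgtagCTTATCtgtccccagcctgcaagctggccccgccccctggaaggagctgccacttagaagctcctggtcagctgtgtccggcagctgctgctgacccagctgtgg
Klf1 promoter: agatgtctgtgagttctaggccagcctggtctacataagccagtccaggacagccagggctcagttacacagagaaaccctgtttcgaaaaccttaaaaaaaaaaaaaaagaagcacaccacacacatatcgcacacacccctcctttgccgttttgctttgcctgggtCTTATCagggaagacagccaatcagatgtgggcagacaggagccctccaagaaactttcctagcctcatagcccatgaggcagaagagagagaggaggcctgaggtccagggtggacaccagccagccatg
These windows are chr9:107296409-107296708 for Cish on the plus strand, chr9:21963527-21963826 for Epor on the minus strand and chr8:84901732-84902031 for Klf1 on the plus strand. Of 17495 promoters of 14069 tested genes with an entry, 7.40% held TTCNNNGAA, against 6.17% of 648 promoters of genes called higher and 11% of 73 of genes called lower. GATAAG was in 6.01% of all these promoters, in 9.10% of those of genes called higher and in 5.48% of those of genes called lower. A match is a description of the letters and not a binding site.

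The erythroid genes rose in Y665H replicates 2 to 5 and not in replicate 1. Of 20 genes listed, 16 were tested and 13 were called higher and none lower, with a median log2 fold change of 1.88, and 2.19 without replicate 1. The list summed to 1647 to 3692 CPM in WT, to 1929 CPM in Y665H replicate 1, within that range, and to 8413 to 11800 CPM in replicates 2 to 5. No member was without overlap between the groups, since replicate 1 lay in or below the WT range for all 16. The globin genes, by far the most abundant RNAs of red cells, were nearly uncounted in these tables, and Hba-a2, which was called, did not exceed 0.20 CPM in any of the 9 libraries.

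Slc4a1, which encodes the band 3 anion exchanger of the red cell membrane, was at 360, 211, 626 and 297 CPM in WT, at 447 CPM in Y665H replicate 1 and at 2310, 2725, 1873 and 2546 CPM in replicates 2 to 5. It rose 5.31-fold (log2 fold change 2.41 ± 0.48 SE, adjusted p = 0.00314). Gata1, the leading transcription factor of red cell precursors, was at 15.4, 7.49, 30.1 and 11.9 CPM in WT, at 14.2 CPM in Y665H replicate 1 and at 75.6, 75.8, 49.5 and 71.1 CPM in replicates 2 to 5. Klf1, another erythroid transcription factor, was at 20.1, 7.13, 28.8 and 10.8 CPM in WT, at 10.9 CPM in Y665H replicate 1 and at 90.9, 74.3, 53.4 and 77.0 CPM in replicates 2 to 5. Gata1 and Klf1 rose 3.53- and 3.66-fold (adjusted p = 0.00939 and 0.0188), with replicate 1 among the WT libraries and the other 4 above them. Rhd, which encodes a blood group protein, and Trim10 rose by 2.14 and 2.25 on the log2 scale in the same 4 libraries. Within WT, replicates 1 and 3 were higher than replicates 2 and 4 in Slc4a1, Gata1 and Klf1.

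Among called genes that averaged 1 CPM or more and did not overlap between the groups, the largest rises were those of Mir6236, Bloodlinc, Trim58, Ypel4, Olfr421-ps1, Samd11, Slc6a9, Ccdc24, Phyhip and Gm15816. Their log2 fold changes ranged from 2.44 to 4.17, and some genes under 1 CPM rose by more. Trim58, which encodes a ubiquitin ligase of late red cell precursors, was at 5.08, 2.95, 7.53 and 4.60 CPM in WT and 10.7, 28.9, 45.8, 28.1 and 55.4 CPM in Y665H spleens. It rose 6.67-fold (adjusted p = 0.00128), and replicate 1 lay above WT but below the other Y665H libraries. Bloodlinc, a long noncoding RNA of red cells at chr11:102375549-102377020, lies beside Slc4a1 at chr11:102348824-102366203, both on the minus strand of mm10. It was at 0.108 to 0.403 CPM in WT, at 0.513 CPM in Y665H replicate 1 and at 1.76 to 2.61 CPM in replicates 2 to 5. Mir6236, like Rn45s, was highest in Y665H replicate 1, with 12.5 to 31.9 CPM in WT, 1144 CPM in Y665H replicate 1 and 65.2 to 511 CPM in replicates 2 to 5.

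**Figure D5:**
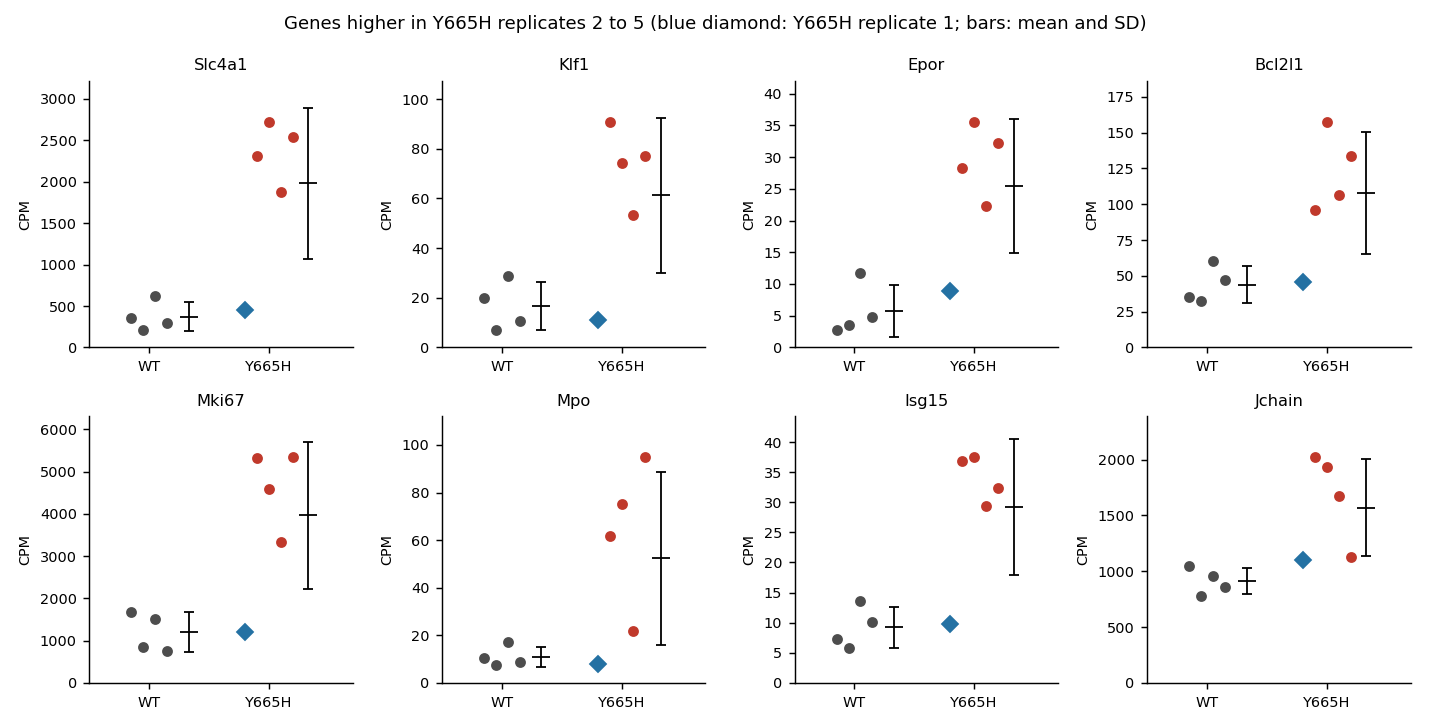
Level of genes that rose in Y665H spleens in each library, in CPM, with Y665H replicate 1 as a diamond and the mean and SD of each group as bars. Replicates 2 to 5 lie above the WT libraries and replicate 1 lies with or near the WT libraries.

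The cell cycle genes rose together. All 19 passed the adjusted p and 14 were called higher, with a median of 1.28, and 17 were called without replicate 1. Their sum was 1995 to 3546 CPM in WT, 2754 CPM in Y665H replicate 1 and 6501 to 9799 CPM in replicates 2 to 5. Mki67, a marker of dividing cells, was at 1689, 847, 1507 and 757 CPM in WT, at 1211 CPM in Y665H replicate 1 and at 5323, 4597, 3333 and 5344 CPM in replicates 2 to 5 (log2 fold change 1.72 ± 0.39 SE, adjusted p = 0.00534). E2f1, a transcription factor of S phase entry, was the member without overlap, at 6.26, 5.40, 9.97 and 6.53 CPM in WT and 13.8, 27.9, 27.3, 19.4 and 26.1 CPM in Y665H spleens, 3.24-fold higher (adjusted p = 0.000505). Ccnb2, a cyclin of mitosis, and Rrm2, a subunit of ribonucleotide reductase, rose by 1.65 and 1.60 on the log2 scale (adjusted p = 0.00483 and 0.00883).

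Neutrophil genes rose as well. Of 17 genes tested, 14 were called higher and none lower, with a median of 1.88, and 16 were called without replicate 1. The list summed to 265 to 413 CPM in WT, to 166 CPM in Y665H replicate 1, below WT, and to 488 to 1891 CPM in replicates 2 to 5, of which replicate 4 was lowest. Y665F spleens summed to 494 to 1197 CPM, also above WT, so a higher sum was not particular to Y665H. Mpo, the myeloperoxidase of granulocyte precursors, was at 10.4, 7.49, 17.0 and 8.71 CPM in WT and 8.05, 61.7, 75.3, 21.8 and 94.9 CPM in Y665H spleens, 4.79-fold higher (adjusted p = 0.006). S100a8, an abundant protein of maturing neutrophils, was at 70.8, 43.2, 60.9 and 45.4 CPM in WT and 18.5, 230, 307, 78.9 and 266 CPM in Y665H spleens, 3.27-fold higher (adjusted p = 0.0288). For both genes replicates 2 to 5 were above WT and replicate 1 was not. Cxcr2, the chemokine receptor of mature neutrophils, did not pass (log2 fold change 0.15 ± 0.17 SE, adjusted p = 0.59). Prtn3, Ctsg and Elane, the proteases of granulocyte precursors, rose by 2.80, 2.52 and 2.26 on the log2 scale. The rises were not limited to such genes. S100a9, Ltf, Camp, Lcn2 and Mmp8 of the same list were called too, with rises of 1.66, 2.05, 1.96, 2.09 and 1.445 (adjusted p = 0.0302, 0.0118, 0.00985, 0.0147 and 0.0472). Megakaryocyte genes all had a positive log2 fold change, but 1 of 11, Vwf, passed the adjusted p and none was called (median 0.30).

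Genes of the type I interferon response were divided in direction, and those of the interferon gamma response leaned lower. Of 17 type I interferon genes, 2 were called higher, Isg15 and Rsad2, with a median of 0.01. Isg15 was at 7.26, 5.76, 13.6 and 10.1 CPM in WT, at 9.85 CPM in Y665H replicate 1 and at 36.9, 37.5, 29.4 and 32.3 CPM in replicates 2 to 5, 3.16-fold higher (adjusted p = 0.00279). Rsad2, with 178 to 288 CPM in WT, 124 CPM in Y665H replicate 1 and 538 to 801 CPM in replicates 2 to 5 (log2 fold change 1.21, adjusted p = 0.0272), was not called without any 1 of WT replicates 1, 2 and 4 and Y665H replicates 3 and 5. Other genes of this response, such as Ifit1, Ifit3 and Mx1, did not pass. All 19 genes of the interferon gamma response had a negative log2 fold change, 7 passed the adjusted p as lower (9.05% of all genes tested did) and Gbp2b was called, with a median of −0.26. The list summed to 2283 to 2811 CPM in WT, to 2465 CPM in Y665H replicate 1 and to 1825 to 2198 CPM in replicates 2 to 5. Gbp2b, which encodes a guanylate-binding protein, was at 6.52, 3.17, 5.76 and 2.83 CPM in WT and 2.41, 1.98, 1.83, 1.76 and 1.07 CPM in Y665H spleens, 2.51-fold lower without overlap (adjusted p = 0.00233).

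The other lists held few calls. Prss34 of basophils was called higher among 12 basophil, mast cell and eosinophil genes, a call lost without WT replicate 2 or Y665H replicate 3, and none of 10 stromal and endothelial genes was called. Of 7 fat genes, Cfd and Cidec were called, both highest in Y665H replicate 5 and with log2 fold changes of 3.55 and 2.55 that fell to 1.93 and 1.16 and were not called without it (Cfd also not without WT replicate 2, and Cidec not without WT replicate 2, 3 or 4), and of 12 tested pancreas genes Cela2a was called, at 4.88 CPM in Y665H replicate 2 and at most 0.13 CPM in the others. Its call was lost without Y665H replicate 2 (0.89) and without each WT replicate. Of 12 immediate early and heat shock genes, Dusp1 and Hspa1b were called, Hspa1b with 17.8 CPM in Y665H replicate 2. Without that library neither was called (0.80 for Dusp1 and 0.75 for Hspa1b on the log2 scale), and Hspa1b was not called without any 1 of the WT replicates. Y-linked genes were expressed above Xist in all 9 libraries.

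The largest fall was that of Gm15446, annotated as protein coding at chr5:109923400-109943936 of mm10. It was at 10.4, 12.8, 8.40 and 8.51 CPM in WT and at 0.032, 0.024, 0, 0.088 and 0 CPM in Y665H spleens. Over the 5 Y665H libraries 5 reads were counted, against 1199 over the 4 WT libraries, a ratio of 0.00302 after scaling to the TMM library sizes (exact 95% interval 0.000977 to 0.00706, which covers counting error only). Y665F spleens ranged from 0.113 to 11.1 CPM, so the level in Y665F spleens reached into the WT range. Among called genes that averaged 1 CPM or more and did not overlap between the groups, the other largest falls were those of Klra9, Crisp3, Gzma, Dapl1, Klra10, Cd207, Klra14-ps, Lcn4 and Klrg1. Crisp3 was at 4.33, 5.11, 3.996 and 3.992 CPM in WT and 0.802, 0.439, 0.822, 3.84 and 0.568 CPM in Y665H spleens, with replicate 4 near WT (log2 fold change −1.74 ± 0.42 SE, adjusted p = 0.00792).

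The effect of Y665H in the spleen was set against that in splenic T cells cultured for 24 h with interleukin 2 and interleukin 7, for which the series has 4 WT and 4 Y665H libraries. The question is whether the differences in whole spleen are also found in isolated T cells. Cell types, culture and interleukins differ together between both settings and cannot be told apart. Genes of other cell types, such as Gata1 of red cell precursors, need not be expressed in T cells, so for them the comparison cannot answer this. In these T cells 6 genes were called higher and 10 lower of 22313 tested, but the Y665H libraries were shallow, with 2017012 to 15896125 reads on genes. The difference between both effects was tested as an interaction, which called 530 of 22884 genes (2.32%), 419 more positive and 111 more negative in spleen. Of the 763 genes called higher and 85 called lower in the spleen, 235 were also called by the interaction. The interaction holds the same spleen libraries, so genes chosen for a large spleen effect are favoured in it. This overlap is therefore no separate result. Bcl2l1, Gata1, Mki67 and E2f1 were more positive in spleen by 2.30, 2.30, 2.14 and 1.89 on the log2 scale (adjusted p = 0.00188, 0.0308, 0.038 and 0.0108). With RLE size factors Mki67 was not called by the interaction (adjusted p = 0.0702), and DESeq2 called 802 genes. Il7r, with a log2 fold change of 0.61 ± 0.23 SE in T cells (adjusted p = 0.462), was more negative in spleen by 1.66 (adjusted p = 0.000707), whereas Il9r was more positive by 2.10 (adjusted p = 0.00298). For Gzma, which was among the 10 genes lower in T cells (log2 fold change −1.87, adjusted p = 0.0218), the effects differed by 0.17 (SE 0.52, adjusted p = 0.942). For Klrd1 and Cd8a the differences were −0.70 and −0.57, with adjusted p = 0.194 and 0.17.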

How the data were processed

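RNA was sequenced as stranded, ribosome-depleted total RNA with paired-end reads. Per the labels and the methods, the authors trimmed reads with Trimmomatic 0.36, aligned them to mm10 with STAR and deposited HTSeq 0.9.1 counts per gene without normalization. The extraction text of the deposited records names mammary tissue, whereas the labels and the methods name spleen. The 5 closing lines of each table, which name no gene, entered neither the library sizes nor a test. The line for reads without a feature held 54.9% to 63.5% of all reads listed per library.

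The analysis used edgeR 4.0.16 and limma 3.58.1, run in R 4.3.3. The 19418 of 24421 genes with at least 10 reads over the 16 spleen libraries (4 WT, 5 Y665H, 7 Y665F) were fitted together with TMM factors, glmQLFit and glmQLFTest. A call required a Benjamini-Hochberg adjusted p under 0.05 and a difference of more than 1 on the log2 scale. CPM are counts scaled to the TMM library size, and an SE was taken as the absolute log2 fold change over the root of its F statistic. The interaction was fitted over 31 spleen and T cell libraries. Receptors and targets relative to the T cell list were tested exactly. No pair of libraries held identical counts.

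The genes named are those of the STAT5 lists, the 10 largest rises and falls among called genes that averaged 1 CPM or more and did not overlap between groups, and up to 4 called members, or else the 2 most abundant, of the other lists. Cd3e, Klrd1, Klrk1, Ncr1, Klra7, Prf1, Jchain, Gata1, Klf1, S100a8, S100a9, Ltf, Camp, Lcn2, Mmp8, Cxcr2, Xcr1, Clec9a, Siglech, Ccr9, Flt3, Zbtb46, Batf3, Clec10a, Ifit1, Ifit3, Mx1 and Rn45s were added after their values were seen. The members and lists were chosen with earlier results of these data known. The labels do not say whether each replicate was a separate mouse, and p-values measure the spread between these samples. The scripts were tested on simulated data with known changes. Alternatives were RLE factors, DESeq2 1.42.0, other filters and fold minimums, WT and Y665H alone, a block for the replicate number, 1 RUVr factor and leaving out each library. CD4 T cell libraries were not used here. A few genes of the lists are counted but not reported by name here.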

Additional observations from a re-analysis of the deposited data

Results flagged for a closer look

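In 108 sets of values of 4 or 5 libraries, 1 library lay farther from the others of its group than Dixon's 95% limit in 11, and chance alone flags about 1 in 20. Y665H replicate 1 was set apart in Il7r (112 CPM), Il18r1 (40.4 CPM), Cd8b1 (35.3 CPM) and Cd4 (130 CPM), each as the highest Y665H library. Other single libraries were Y665H replicate 4 in Crisp3 (3.84 CPM), WT replicate 1 in Klrk1 (77.6 CPM), WT replicate 3 in Socs2 (14.6 CPM), and WT replicate 4 in Dapl1 (12.1 CPM) and Il12rb2 (19.2 CPM). The fat genes summed to 463 CPM in Y665H replicate 5, and the pancreas genes to 80.9 CPM in Y665H replicate 2.

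The effect of Y665H differed between spleen and stimulated T cells, by the edgeR interaction test, for 8 of the genes described in full. The spleen effect was more negative in Il7r (−1.66) and Gm15446 (−7.57), and more positive in Il9r (2.10), Bcl2l1 (2.30), Pim1 (1.15), Gata1 (2.30), Mki67 (2.14) and E2f1 (1.89), as differences of log2 fold changes. The T cell tables hold a Y665H library of 2017012 reads on genes.

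Unaligned reads were listed for Y665H replicates 1 to 5 at 111291, 129258, 97680, 95747 and 110188 and for Y665F libraries at 123646 to 158811, against 0 in each WT library. These reads enter no test, and their part in the gene differences was not tested.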

How the results depend on the processing

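The count of genes called higher (763) was 2079 without a fold minimum and 1319 with a minimum of 1.5-fold, and 559 to 1000 with 1 library left out. The count called lower (85) was 55 with filterByExpr, 45 with the replicate number as a block, 1758 without a fold minimum, 264 with 1.5-fold, and 50 (without WT replicate 1) to 107 with 1 library left out. The interaction count (530) was 802 with DESeq2 and 132 with the replicate block. The 40 receptor and target genes relative to the T cell list gave 0 adjusted calls with the other pseudocount, with RLE factors and without the T cell reference. With 1 library left out the count was also 0, but the exact test then has so few arrangements that this says nothing about stability. The number does not pair the libraries: same-numbered WT and Y665H deviations correlated at −0.34, −0.24, 0.48 and 0.04, and 1 of 4 WT libraries correlated best with its own number. With the block 602 genes were called higher.

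Il7r, at a log2 fold change of −1, fell just short of the fold minimum in 14 alternatives and kept its direction. Calls of Crisp3, Cd207, S1pr5, Tnfrsf17, Prss34, Rsad2, Cfd, Cidec, Cela2a, Hspa1b, Dusp1 and Hba-a2 were lost in at least 1. In the interaction, Pim1, Gata1 and Mki67 were lost with the block and Mki67 also with RLE factors. Genes near 0 changed sign. With 1 library left out, log2 fold changes ranged from −0.004 to 0.103 for Stat2, −0.054 to 0.154 for Tyk2, −0.015 to 0.045 for Csf2rb, −0.104 to 0.365 for Ghr, −0.246 to 0.118 for Socs1, −0.376 to 0.01 for Lif, −0.054 to 0.081 for Lyz2, −0.024 to 0.202 for Csf1r, −0.251 to 0.091 for Slc40a1, −0.069 to 0.219 for Ppbp and −0.198 to 0.009 for Cxcl13. Lyz2 was at 0.005 with filterByExpr, 0.008 with WT and Y665H alone and 0.009 without the reads of the erythroid, neutrophil and cell cycle lists, and Ppbp at −0.026 with a RUVr factor. The alternatives that left out the reads of those lists, or those of Rn45s and Mir6236, were chosen after seeing the data and gave 737 and 757 genes higher and 79 and 87 lower. The causes were not tested. Genes under 1 CPM made up 51 of the 85 lower calls, which are limited by depth.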
